A study of Mus musculus with 4 samples.

Results

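The cells described here are 90 endothelial cells (EC) of the mouse aorta, out of 820 EC and 991 deposited cells. They were chosen by their measured counts and are the EC with the highest score over a panel of 6 genes, Vcan, Nog, Slc6a6, Igf2, H19 and Hapln1. An EC was a cell with more than 1200 genes above 0 and at least 3 counts of Pecam1, Cdh5 and Vwf together. The score is the mean over the panel of ln(1 + count per 10000 counts of the cell). These 90 EC, called members below, were ranked over all 4 libraries at once and then compared with the other 730 EC of their own library, with the panel genes left out. The panel was put together as a Vcan, Hapln1, Nog and Igf2 population, and the counts go against that description for most members. Igf2 gave the largest term of the score in 77 of the 90 members, and only 5 members had a count of all of Vcan, Hapln1, Nog and Igf2. The members are therefore described as Igf2-led EC.

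Of the 4 libraries, s001 and s002 are labelled Jag1 ECKO, and s003 and s004 are labelled Jag1 ECWT. The ECKO label stands for mice with Jag1 fl/fl alleles and a CDH5 Cre-ERT2 transgene, which the Cdh5 promoter drives in EC, and the ECWT label for mice with the same floxed alleles without Cre. Tamoxifen was injected intraperitoneally on consecutive days in the protocol for these mice, all on a C57BL/6J background, so floxed alleles and tamoxifen are shared by both labels. The mice were young adult males, matched for age and sex between the labels. The number of mice behind each library is not given in the sources used here. Aortas were digested after removal of the adventitia, and CD31+ CD45- living cells were sorted into single wells and made into libraries by SORT-seq, a plate method that counts transcripts by unique molecular identifiers (UMI). Nothing in the labels says that the 2 libraries of a label came from separate mice, so the variation between libraries may be technical. A p-value for members against other EC measures how that difference varies over the libraries. Between labels, a p-value measures the spread between the libraries. The wells used 373 cell barcodes, of which 324 occur in more than 1 library, as a shared plate set gives. In all, 13 members carry a barcode that a member of another library carries too.

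Igf2 encodes insulin-like growth factor 2, a growth factor of fetal tissues, and lies beside the noncoding RNA gene H19, with which it forms an imprinted pair: Igf2 is expressed from the paternal allele and H19 from the maternal allele. Versican, the product of Vcan, is a large proteoglycan of the vessel wall matrix, and Hapln1 encodes a link protein that fastens such proteoglycans to hyaluronan. Nog encodes noggin, a secreted antagonist of bone morphogenetic proteins (BMP), and Slc6a6 encodes a transporter of taurine.

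The panel genes lie on 4 chromosomes of GRCm38. Igf2 is at chr7:142650766-142666816 on the minus strand and H19 at chr7:142575529-142578143 on the same strand, with annotated starts 88673 bases apart. Vcan is at chr13:89655312-89742509 on the minus strand and Hapln1 at chr13:89539796-89611652 on the plus strand, with starts 202713 bases apart. Nog is at chr11:89300638-89302332 on the minus strand and Slc6a6 at chr6:91684053-91759066 on the plus strand. Igf2 overlaps 3 other annotated genes, Gm49394, Mir483 and, on the opposite strand, Igf2os, and 0 of them are in the table. Whether the counting used strand is not given in the sources used here.

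Igf2 carried the ranking in every library. Its level is given in CPM, counts per 1000000 of the summed counts of a library's members or other EC. In members it was 1776, 1384, 1460 and 1330 CPM in s001, s002, s003 and s004, against 94.1, 62.3, 58.9 and 59.5 CPM in the other EC. These are values the score used and carry no test. An Igf2 count was present in 83 of 90 members, with a median of 5.00 and a highest count of 55.4, and in 180 of 730 other EC, of which 111 had 1 count. The highest Igf2 count among the other EC was 8.01. Igf2 was thus not absent from the rest of the endothelium, and the members are the upper end of a range.

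The remaining panel genes were present in a minority of the members. Slc6a6 had a count in 27.8% of members and 7.12% of other EC, and its level was 408, 162, 676 and 406 CPM in members of s001 to s004 against 13.9, 24.4, 16.4 and 11.7 CPM. Vcan had a count in 11.1% of members and 2.74% of other EC, at 108, 49.1, 295 and 130 CPM against 1.16, 3.66, 5.47 and 8.81 CPM. The highest level of both genes among members was in s003.

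Hapln1 had a count in 9 of 90 members and 15 of 730 other EC, and Nog in 8 members and 3 other EC. In s002 no member had a count of Hapln1, Nog or H19, while 8 of its other EC had Hapln1 and 1 had Nog. H19, the neighbour of Igf2, had a count in 6 members, 5 of them in s003, and in 5 other EC. Of the 7 members without Igf2, the score came from other panel genes, and 3 of them had Slc6a6 alone.

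**Figure D1:**
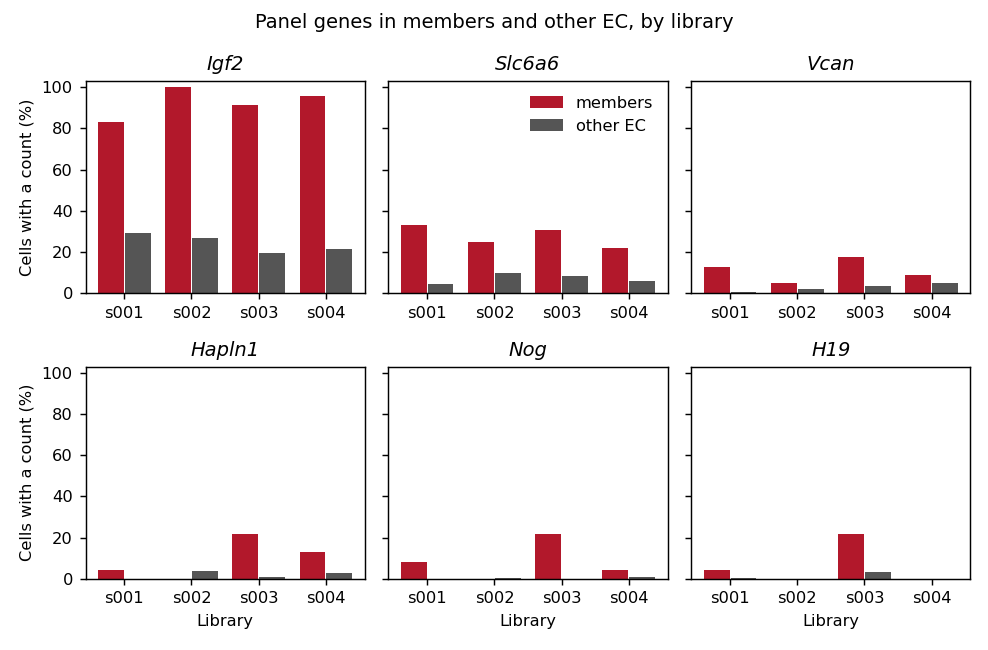
Share of cells with a count (%) of each panel gene in members (red bars) and other EC (grey bars) of the 4 libraries. Igf2 was detected in 83.3% to 100% of the members of a library, whereas the other panel genes were detected in at most 33.3%. The score used these genes, so the difference between the bars is a description.

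Counting panel genes per cell gave the same picture. A single panel gene was detected in 59 members, 2 in 23 members, 3 in 3 members, and 5 or 6 in 5 members. For 56 of these 59, that gene was Igf2. Among the other EC, 472 had no panel gene, 241 had 1 and 17 had 2. Across the 820 EC, Spearman's rho was 0.30 for Nog with Hapln1, 0.27 for Vcan with Nog and 0.21 for Vcan with Hapln1, and for Igf2 it was 0.13 with Nog, 0.08 with H19, 0.08 with Hapln1, 0.02 with Vcan and 0.01 with Slc6a6. These correlations are descriptions over cells that share a library and a depth, mostly cells without a count.

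Ranking EC on the other 5 panel genes described how far Igf2 went with them; all of these are values the score used. The 90 EC highest without Igf2 shared 29 cells with the members, and Igf2 had a count in 27.8% of them against 32.6% of the rest, at a level of 443 CPM against 182 CPM. Removing Hapln1 or Nog from the panel in the same way left 88 and 89 of the 90 cells in place. Ranking on Igf2 alone kept 75.

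The border of the group is a matter of a few counts. Scores ran from 3.59 to a median of 0.479 and a lowest of 0.360, and the highest score outside was 0.359. The last member had 3 Igf2 counts of 3920 counts in all, and the next EC had 2 of 2619. Because the score is scaled by each cell's total, the same number of Igf2 counts gives a shallower cell a higher score.

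**Figure D2:**
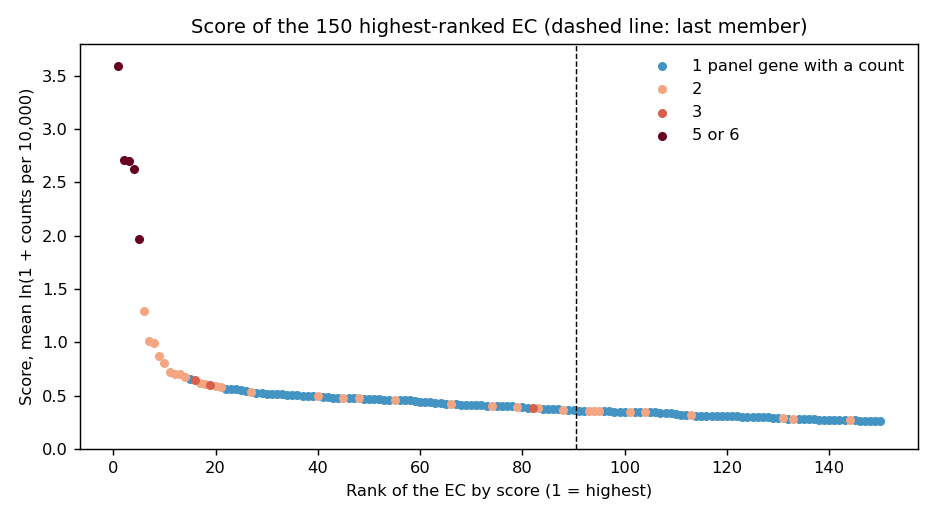
Score of the 150 highest-ranked EC, by rank, coloured by the number of panel genes with a count. The 5 cells with 5 or 6 panel genes hold the highest scores (1.97 to 3.59), the curve then flattens, and the dashed line after rank 90 falls between scores of 0.360 and 0.359.

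The 5 cells at the top of the ranking each had a count of Vcan, Hapln1, Nog, Slc6a6 and Igf2, and 2 of them also of H19. Of these, 3 came from s003, 1 from s001 and 1 from s004. In rank order they had 26, 15, 8, 9 and 2 counts of Vcan, 6, 16, 4, 8 and 3 of Hapln1, 4, 5, 7, 28 and 4 of Nog, and 17, 18, 24, 35 and 14 of Slc6a6. Their Igf2 counts were 45, 21, 29, 3 and 3, so the last 2 of them did not stand out by Igf2. All 5 had Pecam1 counts, between 4 and 35, and totals of 4207 to 7616.

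Other genes of these 5 cells are given as values without a test, since the cells were singled out after their values were seen, as were the genes in the next sentences. Nr4a2, a nuclear receptor induced as an immediate early gene, was at 1109 CPM in the 5 cells summed against 1.96 CPM in the other EC, with a count in 5 of 5 cells and in 1.23% of the other EC. Net1, an exchange factor for RhoA, was at 2666 against 114 CPM. Jag1, the Notch ligand whose deletion the study made, was at 924 against 62.7 CPM and had a count in 5 of 5. Dkk2, a secreted Wnt modulator, was at 481 against 11.8 CPM, and Gap43, a growth cone protein of neurons, at 444 against 8.93 CPM. The arterial transcription factor Sox17 was at 1146 against 153 CPM. Dcn, Cd74, Klk10 and Adra2a had no count in any of the 5.

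Outside the panel, genes higher in members than in the other EC of their library included Alpl, Stmn2, Podxl, Cldn5 and Adra2a, and genes lower in members included Thbs1, Cyp1b1, Bmp4, Sfrp1 and the class II genes Cd74 and H2-Ab1. Counts were summed per library over members and over other EC and compared by edgeR's quasi-likelihood test with the library as a block. Of 6359 genes, 56 were higher in members (0.881%) and 64 lower (1.01%), together 1.89%, at an adjusted p below 0.05, and 600 had an unadjusted p below 0.05. The difference had the same sign in all 4 libraries for 106 of these 120 genes (88.3%), and for 17.0% of all genes tested. The median log2 difference over all genes was -0.01. Without s002 the number of calls was 55, and without s004 it was 77.

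Stmn2, which encodes stathmin-2, a microtubule regulator best known from neurons and listed here with the arterial genes, was at 374, 337, 411 and 551 CPM in members and at 127, 155, 142 and 137 CPM in other EC. The groups did not overlap. The log2 difference was 1.57 (SE 0.17, edgeR adjusted p = 8.02e-07), and a count was present in 64 of 90 members and 259 of 730 other EC. Sox17, a transcription factor of arterial EC, was at 283, 224, 380 and 356 CPM against 170, 137, 168 and 153 CPM, again without overlap (log2 difference 0.98, SE 0.18, edgeR adjusted p = 1.13e-03). Vegfc, a lymphangiogenic growth factor, was at 183, 77.2, 101 and 138 CPM against 46.5, 25, 47.9 and 38.2 CPM (log2 difference 1.66, SE 0.28, adjusted p = 5.92e-04). All 3 passed with each library left out in turn. In the 90 EC highest in a score without Igf2 and H19, of which 28 are members, none of the 3 was called (Stmn2 0.51, adjusted p = 0.27; Sox17 0.47, adjusted p = 0.35; Vegfc 0.85, adjusted p = 0.33), and Sox17 was not called after thinning (0.84, adjusted p = 0.085).

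Podxl, Tcf4, Klk10 and Mgp were chosen after their values were seen. Podxl encodes podocalyxin, a sialomucin of the luminal surface of EC, and was at 1175, 632, 876 and 859 CPM in members against 500, 293, 409 and 314 CPM (log2 difference 1.23, SE 0.13, edgeR adjusted p = 4.58e-07). The tight junction gene Cldn5 was at 774, 576, 667 and 697 CPM against 449, 303, 386 and 263 CPM (log2 difference 0.98, SE 0.14, adjusted p = 5.57e-05). Neither gene overlapped between the groups, and neither was called with a score without Igf2 and H19 (Podxl 0.40, adjusted p = 0.42; Cldn5 0.14, adjusted p = 0.91). Tcf4, a basic helix-loop-helix transcription factor, was higher by 1.03 (SE 0.15, adjusted p = 7.23e-05). Klk10, a secreted protein raised by laminar flow in EC, was higher by 0.76 (SE 0.16, adjusted p = 6.85e-03), but its adjusted p was 0.066 without s002 and 0.15 without s004, and the difference was -0.74 in the 90 EC highest in a score without Igf2 and H19. Mgp, an extracellular inhibitor of BMP and of calcification, was higher by 0.52 (SE 0.10, adjusted p = 1.40e-03), with an adjusted p of 0.069 without s004 and of 0.21 with a score without Igf2 and H19.

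Adra2a, the alpha-2A adrenergic receptor, was at 325, 196, 287 and 227 CPM in members and at 121, 64.1, 61.6 and 48.5 CPM in other EC. The lowest library of members lay above the highest of the other EC, and the log2 difference was 1.85 (SE 0.22, edgeR adjusted p = 2.01e-06). It rested on 23 of 90 members with a count, against 127 of 730 other EC. In the 90 EC highest in a score without Igf2 and H19 the difference was -0.48. Chn2, a GTPase-activating protein for Rac, was at 41.6, 28.1, 101 and 48.6 CPM against 11.6, 4.88, 10.9 and 17.6 CPM (log2 difference 2.25, SE 0.46, adjusted p = 4.90e-03; 0.16 without s003). Cdk19, a kinase of the Mediator complex, was higher by 1.70 (SE 0.29, adjusted p = 5.77e-04). With a score without Igf2 and H19, neither Chn2 (0.57, adjusted p = 0.85) nor Cdk19 (1.04, adjusted p = 0.15) was called.

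**Figure D3:**
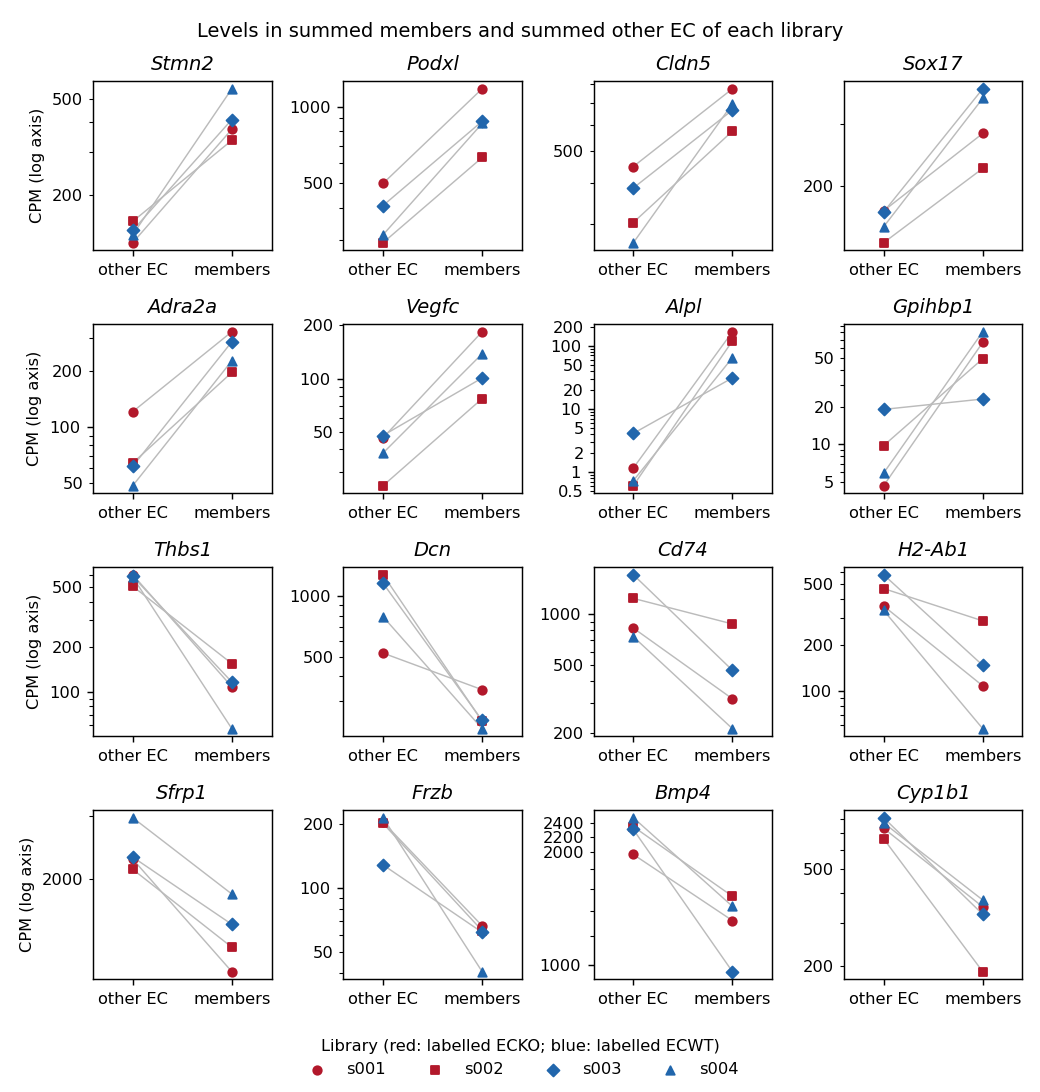
Levels (CPM, log axis) of 16 genes in the summed other EC and summed members of each library. Symbols mark the library, red for those labelled ECKO and blue for those labelled ECWT, and a grey line joins the values of a library. The first 8 genes are higher and the last 8 lower in members of all 4 libraries. The groups overlap for Cd74 and for none of the other genes shown. These genes were picked from the calls, and the share without overlap over all genes tested is not given.

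Alpl had the largest difference of any gene in the fit. It encodes tissue-nonspecific alkaline phosphatase, an enzyme that removes phosphate from extracellular substrates. Its level was 166, 119, 31.0 and 64.8 CPM in members against 1.16, 0.611, 4.11 and 0.734 CPM in other EC, with no overlap, and the log2 difference was 5.92 (SE 0.58, edgeR adjusted p = 1.41e-07). The counts came from few cells, 13 of 90 members and 4 of 730 other EC.

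The 15 largest positive differences were taken among genes called with the same sign in all 4 libraries and at least 20 CPM in the higher group. The remaining genes of these were Gucy1b3, Ucp2, Gpihbp1, Arl15, C1qtnf9, Serpinf1, Eltd1, Robo4 and Flt1. The filter on low counts can keep a gene for its level in members alone, which shapes this order. In other EC the mean over libraries was 1.65 CPM for Alpl, 5.47 CPM for Gucy1b3 and 9.87 CPM for Gpihbp1. Ucp2, a mitochondrial carrier, was at 183, 49.1, 31.0 and 97.3 CPM against 24.4, 7.33, 13.7 and 13.9 CPM (log2 difference 2.56, SE 0.39, edgeR adjusted p = 1.07e-04). Gpihbp1, which holds lipoprotein lipase at the capillary lumen, was higher by 2.55 (adjusted p = 4.34e-03), and Gucy1b3, a subunit of the nitric oxide receptor, by 2.82 (adjusted p = 3.78e-03). Flt1, a receptor for VEGF, was higher by 1.5 (adjusted p = 3.38e-03), and Robo4, an endothelial guidance receptor, by 1.58 (adjusted p = 0.0427). Ucp2 kept its call with each library left out, while the others lost it without at least 1 library. Their adjusted p was then 0.057 for Gucy1b3 (without s004), 0.053 for Arl15 (without s001), 0.075 for C1qtnf9 (without s004), 0.24 for Serpinf1 and 0.12 for Eltd1 (both without s002) and 0.13 for Flt1 (without s002). Gpihbp1 lost it without s002 and without s004 (0.057 and 0.14), and Robo4 without s002, s003 or s004 (0.20, 0.19 and 0.29).

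Of the genes lower in members, Thbs1 had the lowest adjusted p. It encodes thrombospondin-1, a matricellular protein that inhibits angiogenesis and activates latent TGF-beta. Its level was 108, 154, 116 and 56.7 CPM in members and 606, 508, 591 and 584 CPM in other EC, far from overlapping. The log2 difference was -2.36 (SE 0.20, edgeR adjusted p = 8.53e-09), and 31 of 90 members had a count against 386 of 730 other EC. With a score without Igf2 and H19 the difference was -0.74 (adjusted p = 0.11). Cyp1b1, a cytochrome P450 enzyme of EC, was at 350, 189, 326 and 373 CPM against 735, 666, 812 and 773 CPM (log2 difference -1.28, SE 0.15, adjusted p = 3.02e-06).

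Of the 5 genes called lower in the list of interferon response and antigen presentation, whose count stands with the other lists, 4 act in class II presentation. Cd74, the invariant chain, was at 316, 872, 465 and 211 CPM in members and 826, 1235, 1703 and 735 CPM in other EC. The ranges overlapped between libraries, while within every library the members were lower (log2 difference -1.31, SE 0.16, edgeR adjusted p = 5.82e-06). H2-Ab1 was at 108, 288, 147 and 56.7 CPM against 360, 468, 577 and 337 CPM without overlap (log2 difference -1.55, SE 0.21, adjusted p = 1.97e-05). H2-Aa fell by 1.27 (adjusted p = 3.42e-05) and H2-Eb1 by 1.06 (adjusted p = 9.03e-04), and these 4 genes were called with each library left out. Outside that list, H2-DMa (-1.79, adjusted p = 0.0391) and H2-DMb1 (-1.56, adjusted p = 9.01e-03), which load peptide onto class II molecules, were called with all libraries. H2-DMa lost its call without s002, s003 or s004 (adjusted p of 0.18, 0.18 and 0.23), and H2-DMb1 without s001, s002 or s003 (0.053, 0.052 and 0.070). Of 10 leukocyte markers, 8 were in the table, and they took up to 0.00162% of counts in members and 0.00116% in other EC. All cells had been sorted as CD45-. The part of leukocyte RNA in the class II result was not tested.

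Of 11 genes of the Wnt list that could be tested, 3 were lower and 0 higher, beside 1.01% lower and 0.881% higher over all genes, and the list's median log2 difference was -0.02. The 3 genes, Sfrp1, Sfrp2 and Frzb, encode secreted Wnt antagonists. Sfrp1 was at 1099, 1286, 1490 and 1811 CPM in members against 2268, 2124, 2298 and 2961 CPM, without overlap (log2 difference -0.76, SE 0.11, edgeR adjusted p = 3.94e-05). Frzb was at 66.5, 63.1, 62.0 and 40.5 CPM against 205, 202, 129 and 214 CPM, also without overlap (log2 difference -1.67, SE 0.26, adjusted p = 1.44e-04). Sfrp2 was at 116, 49.1, 7.75 and 64.8 CPM against 286, 72.2, 181 and 241 CPM (log2 difference -1.68, SE 0.30, adjusted p = 1.08e-03). All 3 were called with each library left out. After every EC was thinned to 2500 counts, Sfrp1 (-0.41, adjusted p = 0.084) and Sfrp2 (-1.11, adjusted p = 0.27) were not called, and Sfrp2 was not called with a score without Igf2 and H19 (-0.99, adjusted p = 0.16). Dkk2, a further secreted Wnt modulator of the list, had too few counts for the test, and was at 222 CPM in members with Alpl, 28.5 CPM in members without Alpl and 11.8 CPM in other EC. In the members with Alpl, 4 cells had a Dkk2 count. Of the 5 cells at the top of the ranking, described above, 4 are members with Alpl.

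The BMP ligands Bmp4 and Bmp6 were lower in members. Nog, the BMP antagonist of the panel, had a count in 8 of 90 members, and a link with these ligands was not tested. In the 56 members with Igf2 as the only panel gene, the log2 difference was -0.63 for Bmp4 (edgeR adjusted p = 0.0166). For Bmp6 it was -1.62 there (adjusted p = 0.067). Bmp4 was at 1316, 1527, 962 and 1436 CPM against 1974, 2341, 2300 and 2473 CPM, with no overlap (log2 difference -0.79, SE 0.11, edgeR adjusted p = 4.87e-05). Bmp6 was at 33.3, 7.01, 38.7 and 24.3 CPM against 139, 42.8, 87.6 and 93.2 CPM (log2 difference -1.80, SE 0.37, adjusted p = 4.56e-03; 0.062 without s001). With a score without Igf2 and H19, Bmp4 (-0.71, adjusted p = 0.19) and Bmp6 (-1.55, adjusted p = 0.098) were not called, and Bmp6 was not called by DESeq2 (adjusted p = 0.075) or after thinning (adjusted p = 0.17). Of 20 BMP pathway genes tested, Bmp4, Bmp6 and Fstl1 were lower and Id1, a direct target of BMP signalling, was higher (over all genes 1.01% and 0.881%), and the median of the list was -0.43 against -0.01 over all genes. Id1 (log2 difference 0.94, adjusted p = 0.0492) lost its call without s001, s002 or s004 (adjusted p of 0.054, 0.31 and 0.67). Fstl1, a secreted glycoprotein of the follistatin family, was lower by 0.42 on the log2 scale (adjusted p = 0.0283), and its adjusted p lay between 0.064 and 0.25 with a library left out.

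Nrp1, a coreceptor of VEGF and semaphorins, was at 907, 491, 760 and 502 CPM in members against 1248, 1186, 1559 and 1467 CPM (log2 difference -1.05, SE 0.14, edgeR adjusted p = 1.40e-05). Smoc1, a basement membrane protein that binds BMP, was at 433, 267, 364 and 138 CPM against 720, 794, 753 and 778 CPM (log2 difference -1.36, SE 0.18, adjusted p = 1.40e-05). Neither overlapped between the groups, and both were called with each library left out. Fmo2, a flavin monooxygenase, was at 41.6, 42.1, 38.7 and 40.5 CPM against 224, 118, 76.7 and 245 CPM (log2 difference -1.94, SE 0.30, adjusted p = 1.35e-04). Pcolce2, an enhancer of collagen processing, was lower by 1.79 on the log2 scale (SE 0.26, adjusted p = 6.06e-05). With a score without Igf2 and H19, Nrp1 (-0.38, adjusted p = 0.31), Smoc1 (-0.31, adjusted p = 0.64), Pcolce2 (-0.35, adjusted p = 0.61) and Fmo2 (0.20, adjusted p = 0.89) were not called, nor was Fmo2 after thinning (-1.27, adjusted p = 0.094).

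Among the lower genes with low counts, Lbp, the lipopolysaccharide-binding protein, was at 0, 0, 7.75 and 8.10 CPM in members against 69.7, 34.8, 38.3 and 34.5 CPM (log2 difference -3.41, SE 0.72, edgeR adjusted p = 5.91e-03), with a count in 2 members. Its adjusted p was 0.093 without s001 and 0.079 without s002. Scored without Igf2 and H19, the Lbp difference was -0.033 (adjusted p = 0.99). Wnk4 (-2.33, adjusted p = 0.0131), G0s2 (-2.24, adjusted p = 0.0160), Bcap29 (-1.79, adjusted p = 0.0160) and Rps6ka2 (-1.72, adjusted p = 0.0433) lost their calls when s001, s002 or s004 was left out, with adjusted p values of 0.066 to 0.22, and Rps6ka2 also without s003 (0.10). Under the score without Igf2 and H19, the differences were -0.19 for Wnk4, -0.15 for G0s2, -0.39 for Bcap29 and -1.48 for Rps6ka2. None of these was called (adjusted p of 0.95, 0.97, 0.82 and 0.12). Igfbp5, a binding protein for insulin-like growth factors, was at 66.5, 28.1, 54.2 and 16.2 CPM against 86.3, 337, 137 and 22.8 CPM (log2 difference -1.74, adjusted p = 7.80e-03). This call rested on s002, without which the difference was -0.81 (adjusted p = 0.61). With a score without Igf2 and H19, Igfbp5 was called in the opposite direction (2.63, adjusted p = 1.67e-04).

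Dcn, which encodes the small proteoglycan decorin, was called lower (log2 difference -1.79, SE 0.19, edgeR adjusted p = 6.21e-07). Its level was 342, 239, 241 and 219 CPM in members against 521, 1276, 1158 and 790 CPM, and a count was present in 16 of 90 members and 345 of 730 other EC. A single member held 95.1%, 47.1%, 90.4% and 92.6% of the member counts of s001, s002, s003 and s004. Among EC with more than 1500 genes the difference was 0.19, on the other side of 0, and with 120 members it was -0.0061. With a score without Igf2 and H19, Dcn was called in the opposite direction (2.12, adjusted p = 2.05e-05). Dcn marks fibroblasts, and the whole fibroblast list of 10 genes took 0.0989% to 0.161% of counts in members and 0.158% to 0.279% in other EC. Without the EC that had more than 1% of counts from fibroblast and smooth muscle markers, the Dcn difference was -1.63 (edgeR adjusted p = 1.34e-05). The part of fibroblast RNA in this result was not tested.

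Gene lists were read by their counts of calls and their median, beside 0.881% higher, 1.01% lower and a median of -0.01 over all genes. In the arterial list, 4 of 18 genes tested were higher (Sox17, Mgp, Vegfc and Stmn2) and 2 lower (Nrp1 and Tm4sf1), with a median of -0.03. The venous list had 0 higher and 2 lower of 7, Emcn and Icam1, with a median of -0.31. Emcn, which encodes the sialomucin endomucin, was at 200, 56.1, 38.7 and 48.6 CPM in members against 237, 166, 155 and 174 CPM (log2 difference -1.18, edgeR adjusted p = 0.0117); its adjusted p was 0.19, 0.057 and 0.084 without s002, s003 and s004. Icam1, a leukocyte adhesion molecule, was lower by 1.10 on the log2 scale (adjusted p = 2.36e-03; 0.093 without s002).

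The capillary and lipid handling list had 3 higher and 0 lower of 6, with a median of 0.53, beside 0.881% and 1.01% over all genes. Besides Gpihbp1 these were Fabp4, a fatty acid binding protein, and Cd36, a fatty acid receptor. Fabp4 was at 1059, 386, 46.5 and 594 CPM in members against 592, 149, 132 and 113 CPM, lower in members of s003 and higher in the other 3 libraries. Cd36 was at 433, 176, 15.5 and 105 CPM against 164, 34.9, 68.6 and 16.9 CPM, with the same order. The log2 difference was 1.14 for Fabp4 (edgeR adjusted p = 0.0114) and 1.44 for Cd36 (adjusted p = 0.0197). Without s002 and without s004 the adjusted p was 0.29 in both cases for Fabp4, and for Cd36 it was 0.20 without s001, 0.46 without s002 and 0.099 without s004. Without EC with an Alpl count the difference was 0.098 for Fabp4 (adjusted p = 0.97) and 0.49 for Cd36 (adjusted p = 0.90), and for the 56 members with Igf2 as the only panel gene it was -1.53 (adjusted p = 5.85e-03) and -2.02 (adjusted p = 0.11). DESeq2 called neither gene (adjusted p = 0.9999 for both).

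The interferon and antigen presentation list had 5 lower and 0 higher of 19 (H2-K1, Cd74, H2-Aa, H2-Ab1 and H2-Eb1; median -0.38), where 1.01% of all genes were lower and 0.881% higher. The shear stress list had 2 higher, Klk10 and Pdgfb, and 4 lower, Cyr61, Icam1, Thbs1 and Cyp1b1, of 18. Cyr61, a matricellular target of YAP, was at 591, 161, 62.0 and 251 CPM in members against 750, 326, 603 and 833 CPM (log2 difference -1.32, SE 0.23, edgeR adjusted p = 6.65e-04), a call lost after thinning (-0.57, adjusted p = 0.20) and with DESeq2 (adjusted p = 0.34). Pdgfb, the growth factor that recruits mural cells, was higher by 1.26 (adjusted p = 6.30e-03; 0.084 without s001 and 0.083 without s004). Scored without Igf2 and H19, the Pdgfb difference was 0.49 (adjusted p = 0.80). Without EC with an Alpl count it was 0.84 (adjusted p = 0.37). No gene of the Notch list (16 tested), the elastic fibre list (9), the cell cycle list (11) or the osmolyte and amino acid transport list (5) was called. Beside 0.881% over all genes, the list of immediate early and dissociation genes, a sign of handling, had 2 higher of 28, Btg2 and Mt1, and a median of 0.03. Btg2 had an adjusted p of 0.053 without s001, and Mt1 of 0.053 to 0.19 with a library left out. Scored without Igf2 and H19, neither Btg2 (0.21, adjusted p = 0.91) nor Mt1 (0.75, adjusted p = 0.17) was called. After thinning, neither Btg2 (0.88, adjusted p = 0.23) nor Mt1 (0.47, adjusted p = 0.79) was called.

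Calls in the matrix and guidance lists were few, and most were lost when a library was left out. The basement membrane list had 3 higher of 15, Sparcl1, Col8a1 and Col18a1, with Smoc1 lower, beside 0.881% and 1.01% over all genes. Sparcl1, a secreted relative of SPARC, was at 458, 393, 62.0 and 122 CPM in members against 52.3, 22.6, 80.8 and 43.4 CPM, higher in 3 of 4 libraries (log2 difference 2.39, SE 0.37, edgeR adjusted p = 1.44e-04; 0.085 without s002). It was not called by DESeq2 (adjusted p = 0.37), in the 90 EC highest in Igf2 (1.15, adjusted p = 0.10), in Igf2-only members (0.53, adjusted p = 0.95) or without EC with an Alpl count (1.84, adjusted p = 0.13). Col8a1 (1.44, adjusted p = 7.73e-03) lost its call without s001, s002 or s004 (0.25, 0.066 and 0.060), and Col18a1 (1.16, adjusted p = 0.0427) without s001 or s002 (0.22 and 0.80). The axon guidance list had Robo4 and Sema7a higher and Nrp1 and Efna5 lower of 17. Sema7a (1.29, adjusted p = 0.0469) lost its call with any library left out (0.092 to 0.27), whereas Efna5, an ephrin ligand, was at 491, 597, 488 and 518 CPM against 799, 766, 849 and 911 CPM and kept it (log2 difference -0.65, SE 0.13, adjusted p = 3.90e-03), though not after thinning (-0.53, adjusted p = 0.084).

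Of 11 genes of endothelial to mesenchymal transition and valve formation, beside the same background of 0.881% and 1.01%, S100a4 was higher (1.38, edgeR adjusted p = 0.0209) and the transcription factor Twist1 lower (-1.23, adjusted p = 0.0223). Twist1 was at 83.2, 35.1, 178 and 32.4 CPM in members against 225, 132, 162 and 249 CPM, higher in members of s003 and lower in the other libraries. Both lost their calls without s001, s002 or s004, with adjusted p values of 0.22, 0.093 and 0.13 for S100a4 and 0.12, 0.29 and 0.29 for Twist1. Vegfa, a growth factor for EC, was lower by 1.43 on the log2 scale (adjusted p = 0.0163; 0.13 without s001 and 0.15 without s002).

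The lists closest to the panel's own functions held few calls. Over all genes 0.881% were higher and 1.01% lower. Of 7 hyaluronan and versican matrix genes tested, Stab1, a scavenger receptor, was lower by 0.54 on the log2 scale (edgeR adjusted p = 0.0393; 0.090 to 0.19 with a library left out), and 0 were higher. Of 7 genes of the insulin-like growth factor system, only Igfbp5 was called. Of 17 imprinted genes, only Dcn was called, and it is imprinted in the placenta. Annotated genes with a start within 1 Mb of Vcan, Hapln1, Igf2 or H19 numbered 35 in the table and 12 in the test, of which 0 were called by edgeR; the lowest adjusted p was 0.345 (Mob2), and 2 had an unadjusted p below 0.05. Their log2 differences ran from -0.66 for Tnfrsf26 to 0.90 for Mrpl23.

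**Figure D4:**
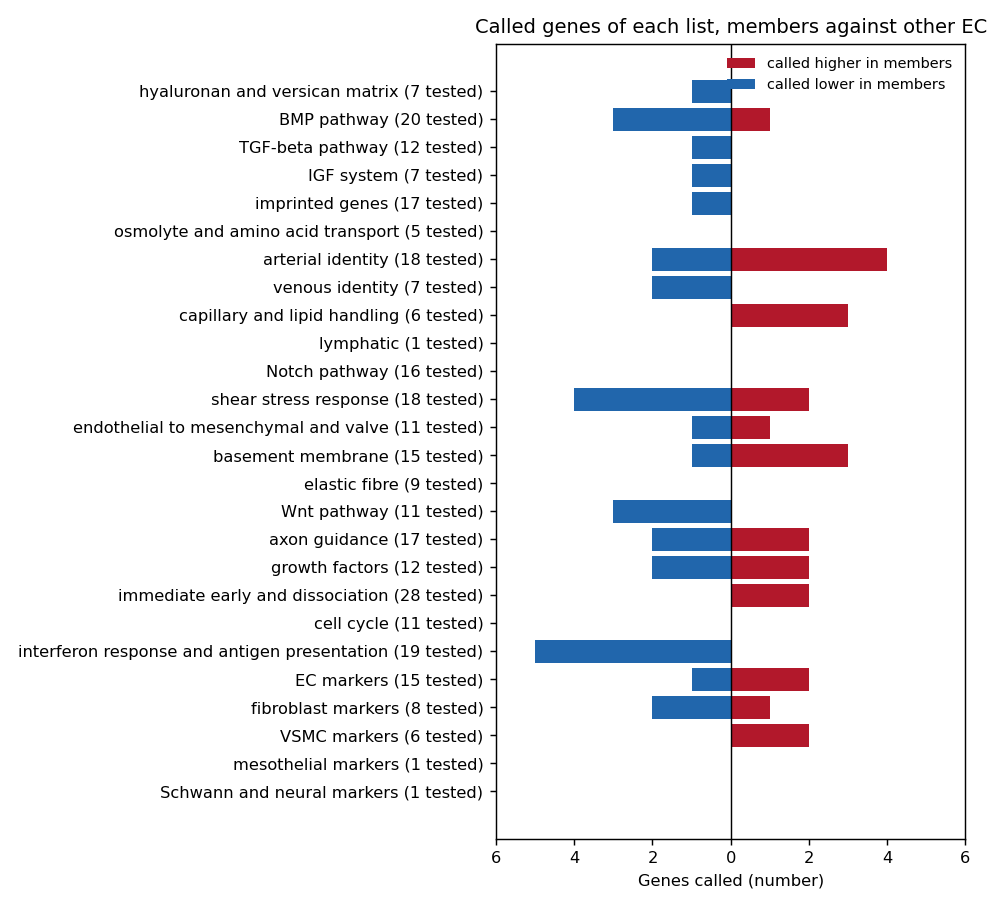
Number of genes of each list called higher (red, to the right) or lower (blue, to the left) in members, with the number tested beside each name. The interferon and antigen presentation list shows 5 lower and 0 higher, and the arterial list 4 higher and 2 lower. Genes can be in more than 1 list.

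The members with an Alpl count and those with Igf2 as the only panel gene differed in the genes beside it, and as both sets were picked after the values were seen they are described without a test. Members with an Alpl count numbered 13, with 4, 2, 2 and 5 of them in the libraries s001 to s004. Igf2 had a count in 11 of them and Slc6a6 in 11, and 9 had 2 or more panel genes. Among these 13 members are 4 of the 5 cells at the top of the ranking, so the values of both groups share counts. Summed, they had Fabp4 at 2482 CPM, against 255 CPM in members without Alpl and 218 CPM in other EC. Cd36 was at 871, 89.9 and 59.2 CPM in the same order, Gpihbp1 at 290, 24.1 and 9.15 CPM, and Ucp2 at 444, 41.6 and 13.5 CPM.

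Several genes that were higher over the members as a whole stood higher in the Alpl members than in members without Alpl. Podxl was at 2066 CPM, against 721 CPM in members without Alpl and 356 CPM in other EC. Cldn5 was at 1605, 554 and 332 CPM, Sox17 at 785, 247 and 153 CPM, and Vegfc at 460, 78.8 and 36.6 CPM. Adra2a and Klk10 went the other way, with a count in 1 and 3 of the 13. Dcn had no count in any of the 13, and Cd74 had a count in 1 of them, against 61.0% of members without Alpl and 74.5% of other EC.

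In the 56 members with Igf2 as the only panel gene, the lipid genes were detected in few cells. Fabp4 had a count in 8.93% of them and in 15.5% of other EC, Cd36 in 5.36% and 5.75%, and Gpihbp1 in 3.57% and 2.05%. They had Stmn2 in 69.6% of cells against 35.5% of other EC, Podxl in 96.4% against 73.3%, Klk10 in 69.6% against 46.3%, and Adra2a in 33.9% against 17.4%. Thbs1 was present in 33.9% against 52.9%, Cyp1b1 in 28 of 56 cells against 82.2% and Dcn in 17.9% against 47.3%. These cells came from all 4 libraries, with 16, 15, 9 and 16 in s001 to s004.

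**Figure D5:**
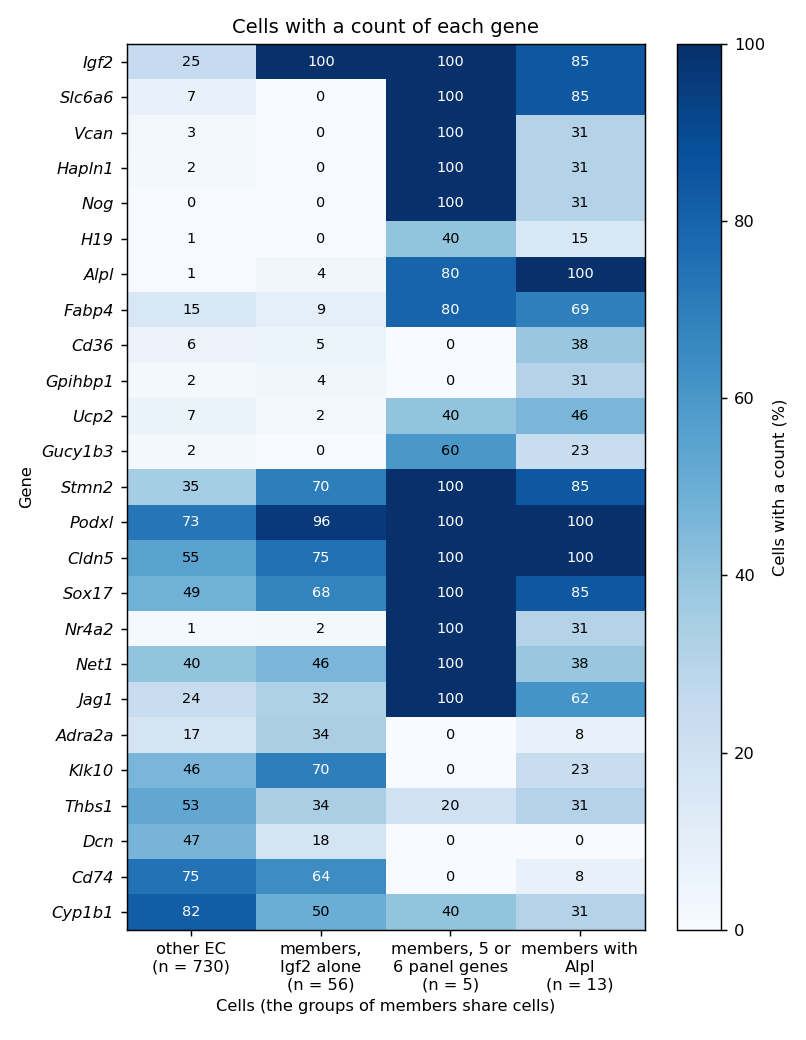
Share of cells (%) with a count of each of 25 genes in other EC, in members with Igf2 as the only panel gene, in members with 5 or 6 panel genes, and in members with an Alpl count; darker is higher. Stmn2, Podxl, Cldn5 and Sox17 are above other EC in all 3 groups of members, whereas Fabp4 is above it in the groups with more panel genes or Alpl and below it in the Igf2-only members.

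The contrast with other EC was refitted for the 56 Igf2-only members as another setting, a choice made after seeing the data that is no independent test. Of 5996 genes, 20 were higher (0.334%) and 48 lower (0.801%), and 48 of these 68 were among the 120 calls of all members with the same direction. The 14 higher genes that both fits called were Adra2a, Btg2, Cdh13, Chn2, Cldn5, F2rl1, Fam107a, Klk10, Ldb2, Mgll, Mgp, Podxl, Stmn2 and Tcf4. The log2 difference was 1.48 for Stmn2, 1.12 for Podxl, 1.25 for Klk10, 2.02 for Adra2a and -2.35 for Thbs1. Fabp4 turned to the other side, with a log2 difference of -1.53. Alpl, Gpihbp1, Ucp2 and Gucy1b3 had too few counts to be tested.

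Leaving out all EC with an Alpl count gave 42 calls, all of which were among the 120. Stmn2 (1.35), Podxl (0.98), Cldn5 (0.70) and Adra2a (1.94) remained called by edgeR, whereas Sox17 (0.67, adjusted p = 0.13), Vegfc (1.04, adjusted p = 0.23) and Flt1 (1.08, adjusted p = 0.20) did not. Others that lost their calls included Robo4 (0.63, adjusted p = 0.91), S100a4 (0.66, adjusted p = 0.84), Col8a1 (0.76, adjusted p = 0.66) and Cdk19 (1.23, adjusted p = 0.091).

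Promoter sequences are shown for Igf2, which led the score, Vcan, the matrix gene of the panel, Alpl, the gene with the largest difference, and Sfrp2, a lower Wnt antagonist. Sequences were 250 bases before the annotated start in the RefSeq tables of GRCm38.p6, and were searched on both strands for ACAAT, a core of the sites bound by SOX factors, read as ACAAT or ATTGT. This motif was chosen after Sox17 was seen among the higher genes. The first listed start of Igf2 (chr7:142666817-142667066, minus strand) had 1 match, in capitals, and those of Vcan (chr13:89742513-89742762, minus strand), Alpl (chr4:137796385-137796634, minus strand) and Sfrp2 (chr3:83766071-83766320, plus strand) had none.
Igf2: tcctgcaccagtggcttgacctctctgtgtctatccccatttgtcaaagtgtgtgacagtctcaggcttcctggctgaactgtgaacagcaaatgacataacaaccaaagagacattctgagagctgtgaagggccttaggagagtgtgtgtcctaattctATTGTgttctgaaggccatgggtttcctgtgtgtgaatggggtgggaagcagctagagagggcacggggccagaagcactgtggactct
Vcan: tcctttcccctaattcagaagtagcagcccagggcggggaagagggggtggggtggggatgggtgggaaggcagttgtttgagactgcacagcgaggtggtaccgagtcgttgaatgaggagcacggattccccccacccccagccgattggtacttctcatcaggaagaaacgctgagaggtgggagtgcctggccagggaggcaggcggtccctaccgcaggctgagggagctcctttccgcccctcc
Alpl: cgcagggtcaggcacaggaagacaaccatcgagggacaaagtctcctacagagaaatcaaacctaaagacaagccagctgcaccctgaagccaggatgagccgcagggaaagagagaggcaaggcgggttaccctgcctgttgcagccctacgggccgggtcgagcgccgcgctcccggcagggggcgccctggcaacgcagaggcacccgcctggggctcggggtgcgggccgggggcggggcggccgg
Sfrp2: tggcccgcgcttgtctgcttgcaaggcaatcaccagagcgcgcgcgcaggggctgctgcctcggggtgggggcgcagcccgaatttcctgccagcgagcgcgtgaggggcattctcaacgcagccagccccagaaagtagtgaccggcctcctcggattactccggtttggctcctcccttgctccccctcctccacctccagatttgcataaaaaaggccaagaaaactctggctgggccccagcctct
A match was present in 9086 of all 32851 promoters in the table (27.7%). It was present in 4 of 14 promoters of the 15 higher genes, of which 10 genes were listed, in 3 of 13 promoters of the 15 lower genes, of which 11 were listed, and in 3 of 6 promoters of the panel, of which 3 genes were listed. These shares are descriptions of the letters in the window and say nothing of binding.

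Markers of EC took more than 1% of counts in 85 of 90 members and in 720 of 730 other EC. The 16 EC markers took 2.17%, 1.98%, 2.09% and 2.09% of counts in members of s001 to s004 and 2.33%, 2.17%, 2.21% and 2.25% in other EC, lower in members of each library, and each marker had a count in members. This list holds the gate genes Pecam1, Cdh5 and Vwf, which the rule used and which are given without a test. Outside the gate, Tie1 had a count in 86 of 90 members and Tek in 69, and of the 15 EC markers in the fit, gate genes included, Cldn5 and Flt1 were called higher and Emcn lower, beside 0.881% and 1.01% over all genes. The log2 difference was -0.15 for Pecam1, 0.12 for Cdh5 and -0.40 for Vwf. Vwf was at 1349, 1490, 1132 and 1216 CPM in members against 2057, 1720, 1578 and 1556 CPM, lower in each library. Pecam1 was also the antigen of the sort.

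Markers of vascular smooth muscle cells (VSMC) stood apart in 2 libraries. The 10 VSMC markers took 0.328%, 0.595%, 0.0132% and 0.0251% of counts in members of s001 to s004, and 0.136%, 0.121%, 0.0442% and 0.0952% in other EC. In s001 and s002 this came from 1 member each, with VSMC markers at 5.25% and 4.02% of their counts and EC markers at 0.0924% and 0.240%. In both cells Vcan led the score. Myh11, the smooth muscle myosin heavy chain, was called higher (log2 difference 1.62, edgeR adjusted p = 0.0217), with 93.4% and 97.6% of its member counts in 1 cell in s001 and s002, and without s002 the difference was 0.27 (adjusted p = 0.94). In all, 4 of 90 members and 29 of 730 other EC had more than 1% of counts from fibroblast and VSMC markers. Without these cells 138 genes were called in members, 104 of them among the 120.

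The total of a cell divides its score and its gene number is part of the gate, so both are described here without a test. The median total was 5190, 4801, 4594 and 4186 counts in members and 4095, 6574, 5737 and 5220 in other EC, lower in members in 3 of 4 libraries. The mean difference was -713.7 counts (SD 1249, n = 4 libraries), and the median number of genes differed by -194.0 (SD 198.5). Over EC, summed counts per library ran from 859910 to 1780340.

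Between labels, the share of EC that were members was compared next, to ask whether the Jag1 genotype went with the size of the group. Members were 24 of 199 EC in s001 (12.1%, exact Clopper-Pearson 95% interval 7.88% to 17.4%), 20 of 236 in s002 (8.47%, 5.25% to 12.8%), 23 of 140 in s003 (16.4%, 10.7% to 23.6%) and 23 of 245 in s004 (9.39%, 6.04% to 13.8%). These intervals cover counting error only. The libraries of the labels overlapped, with the highest share in s003. The mean was 10.3% ± 2.54 (SD, n = 2) for Jag1 ECKO and 12.9% ± 4.98 (SD, n = 2) for Jag1 ECWT, a difference of -2.64 percentage points (exact two-sided permutation test, p = 0.667, where 0.3333 is the smallest p this design allows). Without s003 the difference was 0.88.

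Jag1, the targeted gene, went against the labels in other EC. The study also checked its deletion in this mouse line by qRT-PCR and en face staining, assays not analysed here. In other EC it was at 153 and 71.5 CPM in the libraries labelled Jag1 ECKO and at 15.1 and 20.6 CPM in those labelled Jag1 ECWT. In members it was at 241, 63.1, 132 and 81.0 CPM in s001 to s004, so the labels overlapped there. Whether the counted 3' end of the transcript lies in the deleted part is not given in the sources used here, and directions between labels are given for the libraries as labelled. Between members and other EC, Jag1 was higher in 3 of 4 libraries (log2 difference 1.14, SE 0.34, edgeR adjusted p = 0.101). It was called higher under 7 of the alternatives, among them 60 members (adjusted p = 0.007), 120 members (0.021) and the EC without cells rich in fibroblast or VSMC markers (0.021). With a library left out it was 0.67 to 1.57 and not called. It was 0.24 for Igf2-only members (adjusted p = 0.99) and 0.36 without EC with an Alpl count (adjusted p = 0.93), and in s003 a single cell held 58.9% of the Jag1 counts of members.

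Within members, 2320 genes could be tested between labels. Of these, 11 were higher in the libraries labelled Jag1 ECKO (0.474%) and 0 lower, with 159 at an unadjusted p below 0.05. They were Acta2, Tagln, Myh11, Myl9, Tpm2, Flna, Itga8, Gm13889, Col3a1, Col18a1 and Sparcl1, among them 5 of the 10 VSMC markers. Acta2, smooth muscle actin, was at 1648 and 2779 CPM in members of s001 and s002 and at 54.2 and 146 CPM in s003 and s004, and 81.8% and 93.4% of its counts in s001 and s002 were in 1 cell. With the cells rich in fibroblast or VSMC markers left out, 0 of 2434 genes were called by edgeR and 132 had an unadjusted p below 0.05.

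Whether the difference between members and other EC changed with the label was tested by an interaction term. Of 6359 genes, 14 had a positive term (0.22%), that is, a level in members relative to other EC that was higher under the label Jag1 ECKO than under Jag1 ECWT, and 1 a negative term (0.0157%), with 312 at an unadjusted p below 0.05. Without the cells rich in fibroblast or VSMC markers, edgeR called 0 genes and 262 had an unadjusted p below 0.05. None of Stmn2, Podxl, Cldn5, Sox17, Adra2a, Thbs1, Cd74, Sfrp1 and Bmp4 was among the calls in either fit.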

How the data were processed

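The authors sorted single cells, made SORT-seq libraries, aligned their reads with STAR (genome build GRCm38), and deposited a table of 18767 genes by 991 cells. Its values are estimated counts, that is UMI numbers that the authors corrected for chance repeats, and are not normalized between cells. Their processing notes also name Seurat 3.1. The version of STAR, the counting tool and the use of strand are not given in the sources used here. Each column name holds the title of its library.

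From these values, cells were gated and scored as described above. Estimated counts were rounded to whole numbers and summed per library over members and over other EC. The sums were tested with edgeR 4.0.16 in R 4.3.3 (quasi-likelihood test with the library as a block, TMM scaling, genes kept by filterByExpr, adjustment by Benjamini-Hochberg over all genes tested, panel genes left out of library sizes and adjustment). CPM are per 1000000 of the summed counts over all genes. The share of members per library was compared between labels by an exact permutation test in scipy 1.17.1. The fit was tested on simulated data. No doublet caller was run. Cells were not clustered, and the thresholds of the gate were those of the rule.

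The members, the panel and the gene lists were chosen with earlier results of these data known. Genes named are the panel, the gate genes, Jag1, the 15 highest and 15 lowest log2 differences among genes called with the same sign in all 4 libraries and at least 20 CPM in the higher group, up to 4 called genes of each list, the calls of the label tests and genes within 1 Mb of Vcan, Hapln1, Igf2 or H19. Genes outside this rule are marked as chosen after their values were seen, and genes given only in a list of names or counts carry no claim of their own.

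Alternatives changed the number of members, the ranking, the depth, the panel, the gate, scaling, the filter, the tool (DESeq2 1.42.0), the block, UMI numbers, Rn45s and mitochondrial genes, and left out each library. Others were added after seeing the data: the 90 EC highest in Igf2, EC without Alpl, Igf2-only members, members without 3 or more panel genes, and label tests without cells rich in fibroblast or VSMC markers. Positions are from GENCODE on GRCm38 and promoters from RefSeq tables of GRCm38.p6. Figures were drawn with matplotlib 3.10.9.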

Additional observations from a re-analysis of the deposited data

Results flagged for a closer look

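Interaction results of 15 genes stood out because the difference between members and other EC was not the same in the 2 labels, by edgeR's interaction term. For 14 of them the term was positive, so that members stood higher relative to other EC under the label Jag1 ECKO than under Jag1 ECWT, with log2 values of 0.84 for Actb, 0.91 for mtCo1, 1.60 for Cyr61, 2.0 for Igfbp7, 2.07 for Flna, 2.74 for Ctgf, 2.93 for Sparcl1, 3.32 for Acta2, 4.30 for Myh11, 4.43 for Tagln, 4.80 for Myl9, 5.44 for Col3a1, 8.37 for Tpm2 and 9.10 for Synpo2. Rn45s, a ribosomal RNA gene, had a negative term of -0.62. A positive term is not always a larger gap: Cyr61 was below other EC in the members of each library, at 591 against 750 and 161 against 326 CPM in s001 and s002, and at 62.0 against 603 and 251 against 833 CPM in s003 and s004. With members and other EC rich in fibroblast or VSMC markers left out, 0 of these passed. Tpm2 and Synpo2 had no count in the members of s003 and s004, so the size of their values depends on the fit's prior count and is no bound. In members of s001 and s002, 1 cell of each library held 65.2% and 90.4% of the Igfbp7 counts and 75.0% and 84.6% of the Col3a1 counts.

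A second result lies in cells that the gate left out. Of 167 cells with 1200 genes or fewer, 21 had a score at least that of the lowest member, with 13, 1, 2 and 5 of them in the libraries s001 to s004. Igf2 had a count in 85.7% of the 21 and in 9.59% of the rest of these cells, which the score itself sets. Stmn2, which the score did not use, had a count in 38.1% and 20.5%. The median total over all 167 cells was 1857 counts, so these cells are too shallow to be set beside the members.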

How the results depend on the processing

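The number of genes called between members and other EC was 120. Leaving Igf2 and H19 out of the score gave 152 (109 higher and 43 lower); 44 of the 120 were then called in the same direction, and 15 of the 119 tested had the other sign. It was 65 with DESeq2, 25 with no block for the library, 43 with EC thinned to 2500 counts, 68 for the Igf2-only members, 42 without EC with an Alpl count, and 55 to 111 with a library left out. The label contrast within members called 11 genes, 45 without the filter on low counts, 24 to 72 with a library left out and 0 without cells rich in fibroblast or VSMC markers. The interaction called 15 genes, 5 with DESeq2, 12 to 23 with a library left out and 0 without those cells. Where a library left out leaves 1 of a label, that library is assumed to vary like the others. The difference in the share of members was -2.64 percentage points, 3.58 after thinning and -6.16 to 0.88 with a library left out. With more than 1500 genes per cell, the difference in median total was 11.5 counts and that in median genes 48.1; the latter was 26.0 after thinning.

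Scored without Igf2 and H19, the log2 difference changed sign for Adra2a (-0.48), Cdh5 (-0.20), Dcn (2.12), Emcn (0.0018), F2rl1 (-0.77), Fmo2 (0.20), Gsn (1.55), Igfbp5 (2.63), Klk10 (-0.74) and Sema7a (-0.076), and Dcn, Gsn and Igfbp5 were then called higher. For Igf2-only members it did so for Cd36 (-2.02), Col18a1 (-0.26), Fabp4 (-1.53), Myh11 (-2.10), Pecam1 (0.028) and S100a4 (-0.032), and in the 90 EC highest in Igf2 for Col18a1 (-0.16), Myh11 (-2.61) and Myl9 (-2.66). Dcn was at 0.19 with more than 1500 genes. Myh11 was at -0.0725 with 60 members, -2.76 scored without Vcan and Hapln1, -0.71 without cells rich in fibroblast or VSMC markers and -0.13 without members with 3 or more panel genes, and Myl9 was at -2.79 scored without Vcan and Hapln1. The cause of these changes was not tested. Over the 68 called genes tracked, 1225 of 1638 values kept direction and side of the threshold, 390 kept direction only and 23 changed sign. Members and other EC were paired by library. No paired analysis was possible because replicate numbers here follow accession order and tie no libraries across labels. With about 23 members per library, genes with few counts are limited by depth.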
